A study of Mus musculus with 6 samples.

Results

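Circular RNAs of the cohesin genes and of the regulators of cohesin were taken from the circRNA libraries of 6 mouse aortas. The genes were Esco1, Stag1, Stag2, Nipbl, Smc3, Smc1a, Rad21, Wapl, Pds5a and Pds5b, and every circRNA that the deposited table assigns to one of them was kept. This gave 39 entries, which became 38 circles of 9548 in the table once entries whose starts lie 1 base apart were summed. All mice were male ApoE-/- mice on the C57BL/6 background, which lack apolipoprotein E and are used as a model of atherosclerosis. They were 6 weeks old at the start and were then fed a high-fat diet (HFD, n = 3) or a normal diet (ND, n = 3) for 12 weeks. The RNA came from whole aortas, so that all cell types of the vessel were measured together. The genes were chosen by the read counts of 1 Esco1 circle, which had more reads on the HFD, and by their part in the same pathway. The values of that circle by diet are therefore a description, and its call in the fit over all circRNAs restates the choice.

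Cohesin is a protein ring that holds DNA strands together and forms chromatin loops. SMC3, SMC1A and RAD21 form the ring, and STAG1 or STAG2 binds to it. NIPBL loads cohesin onto DNA, WAPL releases it with the help of PDS5A and PDS5B, and ESCO1 acetylates SMC3, which makes the bound ring more stable. A circRNA arises when the end of a downstream exon is joined back to the start of an upstream exon. Its measure is the number of reads across this junction, so circles of different length can be compared by their read numbers.

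The shared or similar ends described below can be read in the following back-splices of Stag1, Stag2, Smc3, Nipbl and Wapl circles. Those of Esco1 are not shown here. Each line holds the last 15 bases of the last exon in lower case and the first 15 bases of the first exon in capitals, read from GENCODE transcripts (release M21, GRCm38). The first 3 lines are Stag1 circles that join different last exons to the same exon 10.
Stag1 exons 10 to 12, chr9:100834418-100848738, plus strand: tactctgatccttcaTGATGCAATTGCTGA
Stag1 exons 10 to 13, chr9:100834418-100855904, plus strand: gttcctacacaaaaaTGATGCAATTGCTGA
Stag1 exons 10 to 14, chr9:100834418-100866214, plus strand: tttctggaaagtgagTGATGCAATTGCTGA
The following 4 lines pair Stag1 with Stag2, which encode alternative subunits of the same position in cohesin.
Stag1 exons 2 to 4, chr9:100705153-100738142, plus strand: aagagtgcaatgcagGTGTGACTTTGAGGT
Stag2 exons 2 to 4, chrX:42201855-42211242, plus strand: aagagtgctatgcagGAACTGTCTTTCTTA
Stag1 exons 28 to 29, chr9:100945856-100947287, plus strand: gaaaacgagtagaagGGATGGAATAGAGTT
Stag2 exons 28 to 31, chrX:42260604-42266476, plus strand: tcttcagcatgccatAGATGGTATAGAATT
The remaining lines show a Smc3 circle seen on both diets, and Nipbl and Wapl circles that share a last exon.
Smc3 exons 8 to 9, chr19:53620589-53621906, plus strand: gctaagctcgacgagATCAACCAAATGGCA
Nipbl exons 15 to 25, chr15:8325684-8336957, minus strand: gacccttcgctagtgGTGATGACGATGAGA
Nipbl exons 21 to 25, chr15:8325684-8330316, minus strand: gacccttcgctagtgGTTAAATAGTAGTGA
Wapl exons 2 to 4, chr14:34676954-34695105, plus strand: agtggccccaaacggGGAATATGAAACAGG
Wapl exons 3 to 4, chr14:34691682-34695105, plus strand: agtggccccaaacggATAAAGTGGAGAATT

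The libraries held 4694 to 5621 back-spliced reads on the HFD and 7142 to 7585 on the ND. The median circRNA had 2 reads over the 6 aortas, and 72.3% of all circRNAs were seen in a single aorta. Counts of 0 were kept as 0 in reads, means and SDs. A floor of 3 reads, summed over the aortas of a diet, was set for ratios, and none was formed where both diets were at or under it. For scale, 3 reads in 1 library came to 49.8 to 52.0 SRPBM (back-spliced reads scaled by the authors to a depth of each library) on the HFD and 40.7 to 43.0 SRPBM on the ND. This floor and the intervals below cover counting error only. All circRNAs together came to 81352 to 93221 SRPBM on the HFD and 98181 to 107115 SRPBM on the ND, so sums on this scale were lower on the HFD over the whole table. Circles were found for 7 of 10 smooth muscle marker genes (none for Tagln, Cnn1 or Des) and for 7 of 9 leukocyte marker genes (none for Cd68 or Cd74). The circles of the smooth muscle markers had 14, 12 and 8 HFD reads and 24, 20 and 31 ND reads. As a share of the back-spliced reads of each library, these were 0.164 to 0.298% on the HFD and 0.280 to 0.415% on the ND, which overlapped, while their SRPBM sums (138 to 243 and 275 to 444) did not. Those of the leukocyte markers were 0.256 to 0.472% and 0.182 to 0.277% of the libraries. Circles of 2 of 5 adipocyte marker genes (none for Adipoq, Plin1 or Fabp4) had 1, 2 and 2 HFD reads and 3, 4 and 6 ND reads, so that their shares of the libraries overlapped as well, while their SRPBM sums (17.3 to 34.5 and 40.7 to 86.0) did not. Endothelial marker circles (3 of 6 genes, none for Cdh5, Kdr or Flt1) had 3, 3 and 8 reads against 3, 2 and 5, and fibroblast marker circles (2 of 5 genes, none for Pdgfra, Col1a2 or Lum) 1, 0 and 4 against 0, 0 and 1. Of the 6 skeletal muscle markers, Ttn alone had circles, with 9 reads in HFD replicate 3, 3 in ND replicate 1 and none elsewhere. In whole aortas, fewer cells of a type and less RNA per cell cannot be told apart.

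The 38 circles came from 8 of the 10 genes and held 99 reads, 38 on the HFD and 61 on the ND. No entry was assigned to Smc1a or Rad21, which encode subunits of the ring itself. Most circles were rare. A single read was found for 20 of the 38, and 31 (81.6%) had reads in a single aorta. Reads in all 6 aortas were found for 1 circle (2.63%, against 2.71% of all circRNAs). Reads were found on the HFD only for 10 circles (26.3%), on the ND only for 23 (60.5%) and on both diets for 5 (13.2%). Of all circRNAs, 32.5% had reads on the HFD only, 46.2% on the ND only and 21.2% on both. The ND libraries were the deeper ones, and ND replicate 2 alone held 32 of the 61 ND reads.

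Esco1 was the most read of these genes, with 7 circles and 48 reads. Of the 3977 host genes in the table, 96.9% had fewer reads. HFD replicates 1, 2 and 3 had 9, 8 and 7 of these reads, and ND replicates 1, 2 and 3 had 3, 15 and 6. The HFD aortas lay close together, and the ND aortas lay both above and below them. Normalized to the effective library size, Esco1 had 9.31 ± 1.67 reads on the HFD and 7.13 ± 5.74 on the ND (SD, n = 3 each).

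The 7 Esco1 circles used 4 first exons and 5 last exons, with reads concentrated at 1 first exon. Esco1 lies on the minus strand of chromosome 18 and its transcript has 11 exons. No circle held exon 1, 10 or 11. The start of exon 5 was the end point of 38 of the 48 reads (79.2%), in circles that ran from exon 5 to exon 7 or from exon 5 to exon 9. Of these 38 reads, 13 belong to the circle of exons 5 to 9, by which the genes were chosen. Exon 5 is 64 nt long and exon 3, the longest exon in any Esco1 circle, is 2130 nt long.

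**Figure D1:**
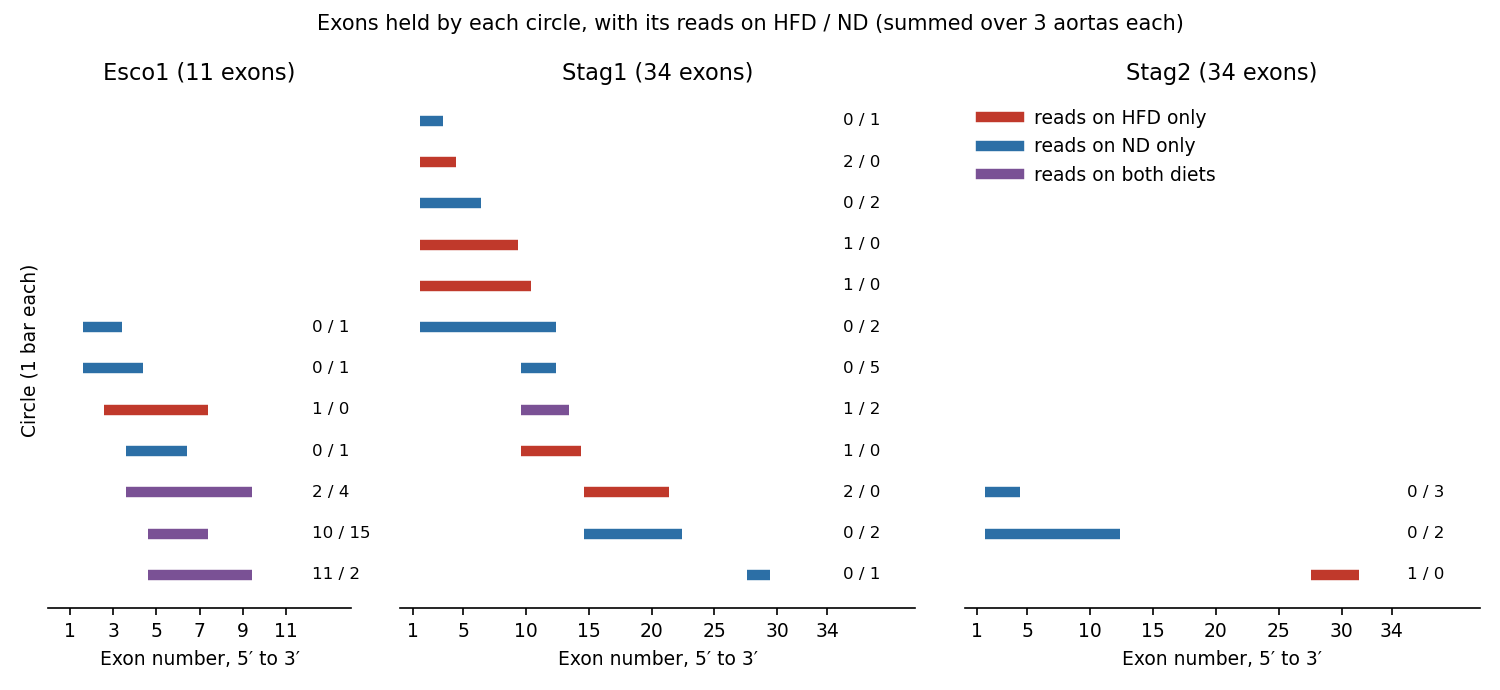
The plot shows the exons held by each circle of Esco1, Stag1 and Stag2, with exon number on the x axis, 1 bar per circle and its reads on the HFD and on the ND at the right, each summed over 3 aortas. In Esco1 the circles of exons 5 to 7 (10 and 15 reads) and exons 5 to 9 (11 and 2 reads) share their first exon, and in Stag1 6 circles start at exon 2.

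The circle of exons 5 to 7 (mmu_circ_0000845, chromosome 18 from 10582055 to 10586041, 311 nt) was the most read circle of Esco1 and the only cohesin circle found in all 6 aortas. On the HFD it had 6, 1 and 3 reads, and on the ND 2, 8 and 5. The lowest and the highest diet values were interleaved. The log2 fold change of HFD over ND was -0.16 in edgeR (standard error 0.86, derived from its test statistic). The ratio of summed reads, adjusted for the effective library size (after TMM scaling), was 0.871 (95% exact counting interval 0.350 to 2.07). With library size alone the log2 fold change was 0.00080, and it was 0.18 without HFD replicate 2 and 0.19 without ND replicate 2, so the data gave this circle no direction.

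The circle of exons 5 to 9 (circRNA6523, chromosome 18 from 10574875 to 10586041, 545 nt) is the circle around which these genes were chosen. It starts at the same exon and runs through exons 8 (90 nt) and 9 (144 nt) as well. On the HFD it had 3, 6 and 2 reads, and on the ND 0, 2 and 0. The 2 ND reads are those of an entry 1 base away from the annotated end of exon 9, and circRNA6523 as deposited had none on the ND. Counting both as the same junction is an assumption, without which the fitted log2 fold change was 5.05. Normalized reads were 3.74, 6.13 and 2.44 on the HFD and 0, 1.81 and 0 on the ND. The diets did not overlap on this scale, while the raw reads of HFD replicate 3 and ND replicate 2 were equal. The mean was 4.10 ± 1.87 against 0.604 ± 1.05 normalized reads (SD, n = 3 each), the log2 fold change was 2.57 (standard error 1.29) and the ratio of summed reads was 7.19 (95% exact counting interval 1.57 to 66.7). The study's criteria, an unadjusted p under 0.05 with a log2 fold change above 1 in either direction, were met by 3.40% of the 2646 circRNAs tested (1.06% higher and 2.34% lower on the HFD). The circle was among them, which its choice by this contrast had fixed, but not in 10 of the 15 alternative fits, including DESeq2, the authors' depth, the replicate block and each fit that left out an aorta other than ND replicate 2. Its log2 fold change was 5.02 without ND replicate 2, the only ND aorta with reads of it, and 1.98 to 2.78 with any other aorta left out. Against an ND of 0 reads, 5.05 and 5.02 rest on the small count that the fit adds, and are no measure of size.

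The third Esco1 circle with more than 1 read held exons 4 to 9 (circRNA3474, chromosome 18 from 10574875 to 10588550, 657 nt). It ends at the same exon 9 as the raised circle and begins 1 exon earlier. On the HFD it had 0, 0 and 2 reads, and on the ND 0, 4 and 0. Each diet had a single aorta with reads. The ratio of summed reads was 0.653 (95% exact counting interval 0.0591 to 4.56). The other 4 circles had 1 read each, exons 2 to 3 in ND replicate 2, exons 2 to 4 in ND replicate 1, exons 3 to 7 in HFD replicate 2 and exons 4 to 6 in ND replicate 3.

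**Figure D2:**
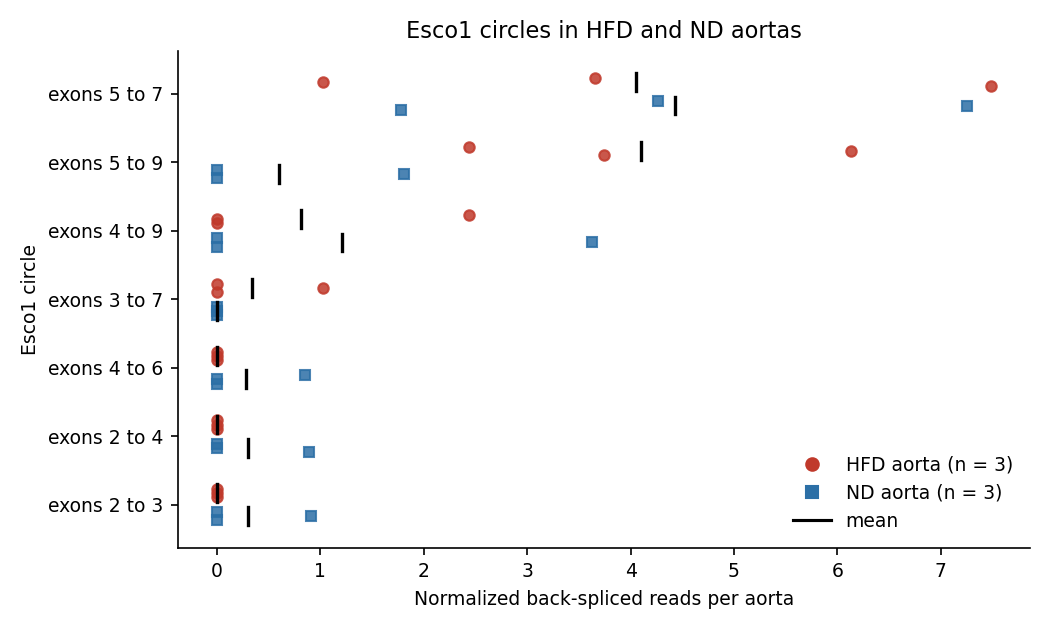
The plot shows the normalized back-spliced reads of each Esco1 circle (x axis) in each HFD aorta (circles) and ND aorta (squares), with black lines for the means of 3 aortas. Exons 5 to 7 overlapped between the diets, with means of 4.05 and 4.43, while the HFD aortas of exons 5 to 9 (2.44 to 6.13) lay above the ND aortas (0 to 1.81).

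Read by splice site, exon 9 was the last exon of 3, 6 and 4 HFD reads and of 0, 6 and 0 ND reads. Exon 7 was the last exon of 6, 2 and 3 HFD reads and of 2, 8 and 5 ND reads. Thus ND replicate 2 had as many reads from the end of exon 9 as the highest HFD aorta. Among the reads joined to exon 5, those from exon 9 were 3 of 9, 6 of 7 and 2 of 5 on the HFD. On the ND they were 0 of 2, 2 of 10 and 0 of 5. The pooled share was 52.4% on the HFD (95% exact binomial interval 29.8 to 74.3) and 11.8% on the ND (1.46 to 36.4). Every HFD aorta had a higher share than every ND aorta, but the intervals of single aortas were wide. The share rests on the circle that the diet contrast chose, so no test of it was made. Without this circle, the Esco1 reads were 6, 2 and 5 on the HFD, against 3, 13 and 6 on the ND.

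**Figure D3:**
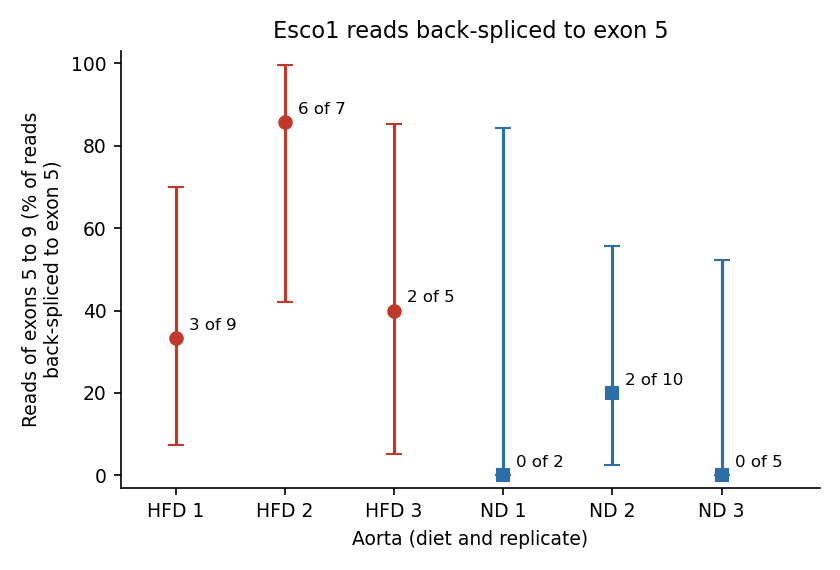
The plot shows, for each aorta on the x axis, the percentage of Esco1 reads back-spliced to exon 5 that came from exon 9, with 95% exact binomial intervals and the read numbers beside each point. The HFD aortas lie between 33.3% and 85.7% and the ND aortas between 0% and 20%, with intervals that overlap.

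Stag1 had 12 circles with 23 reads, and 99.1% of host genes had fewer circles. By aorta these were 3, 2 and 3 on the HFD, and 6, 9 and 0 on the ND, or 3.15 ± 0.96 and 4.50 ± 4.14 normalized reads (SD, n = 3 each). The ND values again lay on both sides of the HFD values. The circles used 4 first exons. Exon 2 was the first exon of 6 circles (9 reads, last exons 3, 4, 6, 9, 10 and 12), exon 10 of 3 circles (9 reads), exon 15 of 2 circles (4 reads) and exon 28 of 1 circle (1 read). Exon 2 of Stag1 lies behind a long intron. The introns on the upstream side of the Stag1 circles had a median length of 46209.5 nt, against 7186 nt over all exonic circRNAs. Most circles with the same first exon share that intron, so the Stag1 median repeats few introns of 1 gene.

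The most read Stag1 circle held exons 10 to 12 (mmu_circ_0015154, 303 nt), with 3, 2 and 0 reads on the ND and none on the HFD. ND replicate 3 had no read either. The circle of exons 10 to 13 (circRNA2266), which joins the end of the next exon to the same exon 10, had HFD reads of 1, 0 and 0, and ND reads of 1, 1 and 0. Exons 15 to 22 (circRNA2267) had 1, 1 and 0 reads on the ND and none on the HFD. None of these 3 circles met the criteria, and none had an unadjusted p under 0.05 in edgeR, DESeq2 or limma. At these read numbers a call was hardly within reach, so nothing is read from its absence.

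Stag2 had 3 circles with 6 reads, which were 0, 0 and 1 on the HFD and 0, 3 and 2 on the ND. The circle of exons 2 to 4 (mmu_circ_0001870) had 3 reads in ND replicate 2, exons 2 to 12 had 2 reads in ND replicate 3, and exons 28 to 31 had 1 read in HFD replicate 3. Each circle was thus seen in a single aorta. Stag1 and Stag2 transcripts both have 34 exons, of which 25 are equal in length when compared by number, and the median identity of the exons was 68.8% (range 32.2 to 86.3%). Circles of both genes had exon 2 as first exon with exons 4 and 12 as last exons, and circles of both had exon 28 as first exon. In the sequences printed above, the last 15 bases of exon 4 were identical at 14 positions and the first 15 bases of exon 28 at 12. The first 15 bases of exon 2 were identical at 3. Exon 2 is 102 nt long in Stag1 and 140 nt in Stag2.

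**Figure D4:**
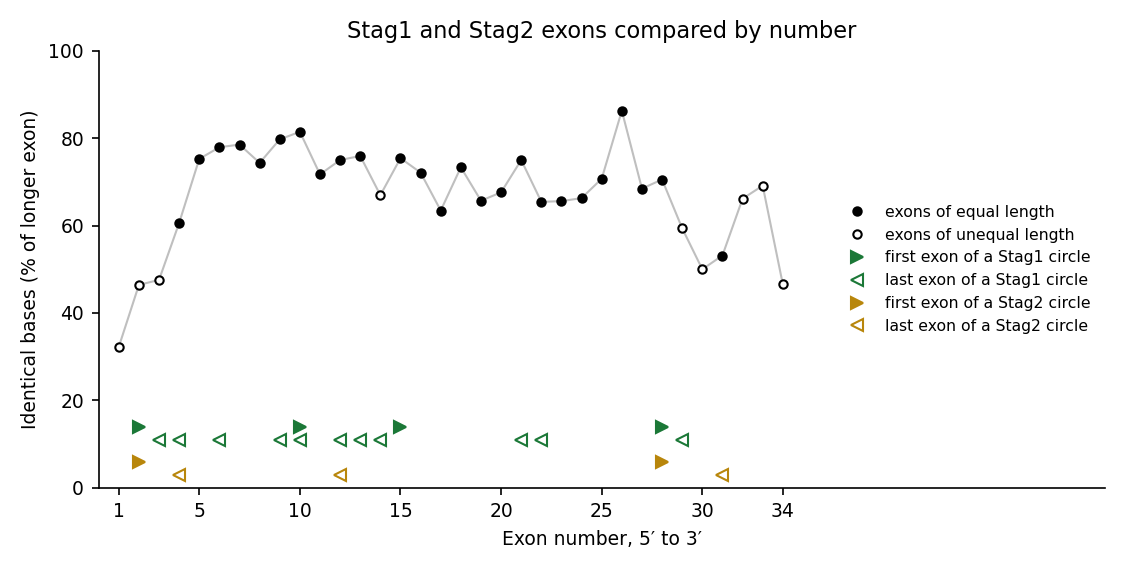
The plot compares Stag1 and Stag2 exons by number, with the identical bases in percent of the longer exon on the y axis, and filled points for exons of equal length. Triangles near the x axis mark the first (filled) and last (open) exons of circles of either gene, and exons 2, 4, 12 and 28 carry marks of both.

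Among the remaining genes no circle had more than 2 reads. Smc3, the subunit that ESCO1 acetylates, had 3 circles with 5 reads (1, 0 and 0 on the HFD, 2, 2 and 0 on the ND). Its circle of exons 8 to 9 (mmu_circ_0007891) had 1 read in HFD replicate 1 and 1 in ND replicate 2, and it was the only circle of the remaining genes with reads in more than 1 aorta. Smc3 exons 14 to 17 had 2 reads in ND replicate 1, and exons 21 to 28 had 1 in ND replicate 2.

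The genes that load and release cohesin gave the following circles. Nipbl had 2 circles with 1 read each, in ND replicates 1 and 3, and both end at exon 25. Wapl had 7 circles with 10 reads, of which the HFD aortas held 2, 1 and 1, and the ND aortas 4, 2 and 0. Of the exonic Wapl circles, exons 2 to 4 (2 reads in HFD replicate 1), exons 3 to 4 (1 in HFD replicate 3) and exons 16 to 18 (1 in HFD replicate 2) were seen on the HFD. Exons 6 to 7 (2 reads in ND replicate 2) and exons 10 to 11 (2 in ND replicate 1) were seen on the ND. The other 2 Wapl circles were intronic and had 1 read each in ND replicate 1. Pds5a had 3 reads and Pds5b had 2, all on the ND. The most read of these was Pds5a exons 19 to 22 (circRNA1421), with 2 reads in ND replicate 1. Pds5b exons 14 to 18 (circRNA5427) and exons 17 to 22 had 1 read each, in ND replicate 3. Nipbl, Pds5a and Pds5b had at most 3 reads over all aortas of a diet, so that a difference was not detectable at this depth.

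Summed over the genes other than Esco1, HFD aortas had 6, 3 and 5 reads, and ND aortas had 15, 17 and 5. Normalized, they were 5.55 ± 2.26 on the HFD and 11.01 ± 5.93 on the ND (SD, n = 3 each), and the groups overlapped because of ND replicate 3. As a share of the back-spliced reads of each library, they were 0.0534 to 0.128% on the HFD and 0.0669 to 0.238% on the ND. On the same scale the smooth muscle marker circles were 0.164 to 0.298% and 0.280 to 0.415%, and their part in this difference was not tested.

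**Figure D5:**
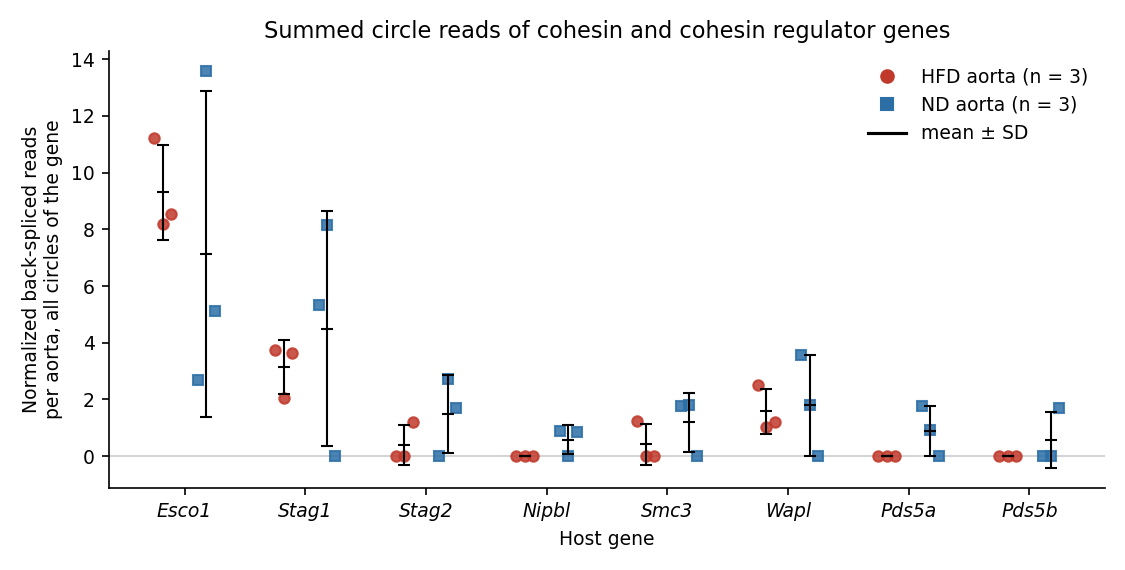
The plot shows the normalized back-spliced reads summed over all circles of each host gene (y axis) in each HFD aorta (circles) and ND aorta (squares), with bars for the mean ± SD of 3 aortas. The diets overlap in Esco1 (9.31 and 7.13 on average) and Stag1 (3.15 and 4.50), and the ranges of the other genes reach down to 0.

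Of the 38 circles, 7 had reads in at least 2 aortas and entered the fit over all circRNAs. Among the 7 circles, 1 was called at the criteria of the study, against 3.40% of all circRNAs tested. It was the Esco1 circle of exons 5 to 9 that the contrast itself had chosen, so nothing is read from this count, which was 0 in 10 of the 15 alternative fits. With entries as deposited, 4.06% of 2564 entries were called, circRNA6523 again among them. An adjusted p under 0.05 was reached by 0 of the 7 circles and by 0.0756% of all circRNAs tested in edgeR. The same circle was the only 1 of the 7 whose HFD aortas all lay above the ND aortas in normalized reads, as did 2.72% of all circRNAs tested. The 4 circles of the other genes that were tested had no call, and 0 had an unadjusted p under 0.05 in edgeR, DESeq2 or limma. They held 2 to 5 reads each. Stag1 exons 15 to 22, with all its reads on the ND, had an unadjusted p of 0.18 in edgeR. At such counts a call was hardly within reach, so nothing is read from its absence.

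Other genes of the pathway were examined by fixed lists. Among 20 further cohesin genes, such as the second acetyltransferase Esco2, 6 had circles (11 circles, 24 reads, 13 on the HFD and 11 on the ND). The most read was Mau2 exons 2 to 3 (mmu_circ_0014924), a circle of the partner of Nipbl in loading, with HFD reads of 0, 3 and 1, and ND reads of 1, 1 and 0. No circle was assigned to Esco2. Among 17 genes of condensin, of SMC5/6 and of related SMC proteins, 6 had circles (16 circles, 24 reads, 5 on the HFD and 19 on the ND). The most read was exons 6 to 11 of Smchd1 (mmu_circ_0000812), which encodes an SMC protein outside both complexes, with 3, 1 and 0 reads on the ND and none on the HFD. None of the 4 and 2 circles tested in these lists was called, and 0 had an unadjusted p under 0.05 in edgeR, DESeq2 or limma. They held 2 to 6 reads each, too few for the missing calls to be read as a lack of change.

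In their structure, the 36 exonic cohesin circles resembled the other exonic circRNAs in size. With entries 1 base apart summed, both ends of every one of them lay at ends of annotated exons. They held a median of 4 exons and 544.5 nt, against 4 exons and 559 nt in the 7909 exonic circRNAs of the table whose structure could be read from the annotation. The start codon was inside 12 of the 36 (33.3%), against 13.5% of all, and 6 of these 12 are the Stag1 circles that share exon 2. The length was a multiple of 3 in 50.0% against 38.4%. Names of the mmu_circ catalogue were carried by 15 (41.7%) against 32.3%. The circles share genes and ends, so these shares are not independent observations. A match to bases 2 to 8 of miR-17-5p (GCACTTT on the circle) was in 0 of the 36, against 5.51% of all exonic circRNAs. A match to miR-212-5p (GCCAAGG) was in 0, against 791 of the 7909, and a match to let-7b-5p (CTACCTC) in 1, Pds5a exons 19 to 22, against 6.08%. Circles were searched on their own strand, across the junction as well.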

How the data were processed

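Back-spliced reads were measured in 3 HFD and 3 ND aortas. RNA was extracted with TRIzol. The labels and the paper's methods name RNase R for isolating circRNA, and the methods also name rRNA depletion, before stranded paired-end sequencing. The authors trimmed reads with Cutadapt, took back-splices from unmapped reads with TopHat-Fusion and called circRNAs with CIRCexplorer and CIRI. Versions, the genome build and how the callers were combined are not given in the sources used here. The authors deposited raw counts, the back-spliced reads of every circRNA in every aorta, and a signal (SRPBM), each count divided by a depth of the library. The depths that this signal implies were 57.7 to 60.3 M on the HFD and 69.8 to 73.7 M on the ND. The deposited fold changes, p-values and q-values between the diets were not used.

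Entries of exonic or intergenic circRNAs on the same strand that share their end and start 1 base apart were summed (475 pairs). This assumes that both entries of a pair are the same junction, which could not be checked, since how the callers were combined is unknown. Host genes given as Ensembl identifiers (891) were all matched to symbols. Coordinates are those of the table and match exon ends of GENCODE M21 (GRCm38), from which structures and sequences were read for 92.8% of the exonic circRNAs. Counts of circRNAs with reads in at least 2 of 6 aortas were scaled by TMM and entered edgeR's quasi-likelihood test (edgeR 4.0.16 in R 4.3.3, glmQLFit and glmQLFTest). Adjusted p-values were computed over all circRNAs tested, of which 2 were under 0.05, none of them a cohesin circle. The quasi-likelihood test gives no standard error. Those printed are the absolute log2 fold change over the square root of its F statistic, and are approximate. Normalized reads are counts over the effective library size, times its mean. Alternatives were entries as deposited, library size alone, the authors' depth, DESeq2 1.42.0, limma 3.58.1 on log2 of SRPBM plus 13.6, other filters, a replicate block and each aorta left out. The fit was also run on simulated counts, and no result here rests on that run. Counts of libraries of a diet varied by more than counting error alone (chi-square over its degrees of freedom 1.86 to 2.71), and each was taken as 1 sample. The labels do not say whether an RNA sample came from 1 mouse or several.

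The genes and lists were chosen with earlier results of these data known. Named circles are all those of Esco1, the most read circle of each other gene (ties went to the smallest start), circles with reads in at least 3 aortas and circles that met the criteria. Others named were singled out after their values were seen.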

Additional observations from a re-analysis of the deposited data

How the results depend on the processing

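Most of these circles have 1 or 2 reads, and 3 aortas per diet limit what can be told apart. The number of circRNAs called over the whole table was 90, and it was 21 with DESeq2, 48 with at least 10 reads and 30 with the replicate block. With 1 aorta left out it ranged from 47 to 114. The number higher on the HFD then ranged from 8 (41 lower, without HFD replicate 2) to 47 (46 lower, without HFD replicate 1). With library size alone 37 were higher and 38 lower, against 28 and 62, the median log2 fold change moving from -0.13 to 0.04. Of these calls, 28 of the 30 with the block, 20 of the 21 from DESeq2, 42 of the 48 at the minimum of 10 reads, 59 of 105 from limma, 44 of 93 at the minimum of 3 aortas and, with an aorta left out, from 31 of 114 (ND replicate 3) to 35 of 49 (HFD replicate 2) were among the 90. The 1 call among the cohesin circles, Esco1 exons 5 to 9, became 0 with the authors' depth, DESeq2, the block, no filter and a minimum of 3 aortas with reads, and the number was from 0 to 1 with an aorta left out (1 without ND replicate 2, and 0 without any of the other 5). Its log2 fold change was then 2.52 with the authors' depth, 2.90 with DESeq2, 2.52 without a filter, 2.55 with reads in at least 3 aortas and 2.88 with the block, and from 1.98 to 5.02 with an aorta left out. It met the criteria with entries as deposited (5.05), library size alone (2.74), limma (1.85) and at least 10 reads (2.63). The circle was chosen for its higher reads on the HFD, so its direction in these alternatives is no sign of stability. The replicate numbers are labels of different samples, and departures from the group mean correlated between aortas of the same number at -0.07, -0.05 and -0.06 over the 200 most read circRNAs, so no pairing was assumed. Esco1 exons 5 to 7 changed sign with library size alone (0.00080), without HFD replicate 2 (0.18) and without ND replicate 2 (0.19), and ranged from -1.04 to 0.19 with an aorta left out. Smc3 exons 8 to 9 changed sign without ND replicate 1 (-0.22) and ND replicate 3 (-0.24), and ranged from -0.24 to 0.71. The difference in the summed normalized reads of Esco1, 2.18 higher on the HFD, was 3.15 with library size alone and 1.67 with the authors' depth, and was -1.32 with the circle of exons 5 to 9 left out. The causes of these changes were not tested.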
